A study of Mus musculus with 12 samples.

Results

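The cytosolic ribosomal protein genes were taken as the rows of the gene count table whose gene ID maps to a protein-coding mouse symbol of the form Rpl or Rps plus a number, with or without a closing letter, together with Rplp0 to Rplp2 and Rpsa. Pseudogene rows and the Rps6k kinases were left out. The rule uses names only, no measured value, and it found 85 genes of 27179 in the table. Of these, 46 encode proteins of the large subunit, 31 encode proteins of the small subunit, and 8 are paralogs (near copies) of other members. Rpl6l and Rps4l match by name but are annotated as pseudogenes and are not members.

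The libraries were made from polyA RNA of sorted C57BL/6 mouse B cells, 12 in 6 groups of 2, and each library is a pool of 2 to 8 mice. Myb knockout plasmablasts (Myb fl/fl CD23-cre T/+) and Myb control plasmablasts (Myb fl/fl without cre) were sorted on day 5 after a boost with NP-KLH in PBS. NP-KLH is a hapten coupled to a carrier protein that is widely used to immunise mice. Myb knockout and Myb control germinal centre (GC) B cells, of the same genotypes, were sorted on day 12 after immunisation with NP-KLH in alum. Moz knockout GC B cells (Moz fl/fl AID-cre T/+) and Moz control GC B cells (AID-cre T/+) were sorted on day 7 after the same immunisation. All Myb groups carry the floxed Myb alleles and both Moz groups carry AID-cre. CD23-cre is present only with the loss of Myb, so the cre and the deletion cannot be told apart. CD23-cre is driven by the promoter of a gene of mature B cells, and AID-cre by that of a gene of activated B cells. The labels give a knockout and a control pool of the same number the same experiment dates, while no plasmablast pool shares a date with a GC pool.

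Ribosomal proteins assemble with ribosomal RNA in the nucleolus into the small subunit, which decodes mRNA, and the large subunit, which joins amino acids. Their mRNAs are among the most abundant of a growing cell, and most begin with a run of pyrimidines (C or T in the DNA) called a 5′ terminal oligopyrimidine (TOP) motif, through which mTORC1 and the RNA-binding protein LARP1 control their translation. GC B cells divide rapidly. Plasmablasts are antibody-secreting cells that devote much of their mRNA to immunoglobulin chains. MYB is a transcription factor of blood progenitors and B cells, and MOZ (gene symbol Kat6a) is a histone acetyltransferase.

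The windows of 30 bases below surround the longest pyrimidine run near a RefSeq transcription start (build GRCm38.p6), printed 5′ to 3′ on the transcript's strand with the run in capitals. They are shown for a choice of the members lower in plasmablasts, for the 2 higher paralogs and for the partners of these paralogs.
Rpl39 (chrX:37085173-37085202, minus strand): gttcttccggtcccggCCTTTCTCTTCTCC
Rpl22l1 (chr3:28805499-28805528, plus strand): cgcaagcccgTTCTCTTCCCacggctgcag
Rpl27a (chr7:109519186-109519215, plus strand): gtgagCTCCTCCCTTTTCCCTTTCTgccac
Rps6 (chr4:86857349-86857378, minus strand): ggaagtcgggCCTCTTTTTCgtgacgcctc
Rps27l (chr9:66946064-66946093, plus strand): ctcctctccaCTCCTCCCCgccgcctctat
Rps27 (chr3:90213631-90213660, minus strand): tccgctttcgCTCCTTTCCggcggtgacga
Rpl36al (chr12:69184020-69184049, minus strand): gctctgttcgTCCCTTTCCTgttcggcgcg
Rpl36a (chrX:134585673-134585702, plus strand): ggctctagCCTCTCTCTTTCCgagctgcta
The runs of Rps27l and Rpl36al, both higher in plasmablasts, have 9 and 10 bases. Those of Rpl22l1 and Rps6, both lower there, have 10 each, and those of Rpl39 and Rpl27a, also lower, have 14 and 20. The run of Rpl39 reaches the end of the sequence at hand, so 14 is its least length. Counted from the start site, it begins at base 36, and those of Rpl36al and Rpl36a at 28 and 27. Those of Rpl22l1 and Rps6 begin at 1 and -1. At another annotated start of Rps27l the longest run has 5 bases. Rpsa and Rps19, which fell more than Rpl27a and Rps6 in control cells, are not shown. The longest run of Rpsa has 7 bases, and those at the annotated starts of Rps19 have 7 to 13.

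RefSeq windows of 300 bases were at hand for 65 of the 85 members. Within 50 bases of a start, the longest run had a median of 10 bases in these members (lowest 5, highest 21), against 6 in 9761 other tested genes. A run of at least 8 was found in 54 of 65 members (83.1%) and in 36.3% of the other tested genes. By a stricter position, a C within 5 bases of a start that opens a run of at least 5, 30 of 65 members (46.2%) matched, against 23.8% of the others. The ETS motif CGGAAG, searched on both strands of the 300 bases, was found in 66.2% of members and 35.8% of the others. The YY1 motif AAGATGG was found in 15.4% and 8.49%, and the E-box CACGTG in 9.23% and 11.9%. For the MYB motifs TAACNG and CAACNG, 35.4% of members and 50.4% of the others held at least 1 of them. Members with a run of at least 8 had a median log2 difference of -1.12 (53 tested members) between control plasmablasts and control GC B cells, and those with shorter runs -0.96 (10 members). In the other tested genes both medians were -0.15. Across the 63 members, run length and that difference had a Spearman correlation of 0.05, a description over genes that share libraries.

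The libraries held 8285934 to 24801297 counts. Between 80 and 83 members had at least 10 counts in a library, and 83 members were among the 13131 genes that passed the filter on low counts. Rpl10l, a testis paralog, had no count in any library, and Rpl3l, a muscle paralog, had 4 counts in all, so neither was tested. Levels are given as TMM-scaled CPM, that is, counts relative to a library total adjusted for a few genes filling a library, and below simply as CPM. All 8 plasmablast markers were higher and all 9 GC B cell markers lower in plasmablasts than in GC B cells of both genotypes. Summed over its 9 markers, the GC B cell list held 118 to 134 CPM in plasmablast pools and 1487 to 2097 in the GC pools of the Myb experiment. The 8 plasmablast markers held 110895 to 150791 CPM in plasmablast pools and 1295 to 2483 in those GC pools. T cell markers summed to at most 6.38 CPM and erythroid markers to at most 1.8 CPM in a library. The 5 myeloid markers summed to 16.1 to 40.7 CPM in knockout and 17.2 to 50.2 in control plasmablasts, against 5.27 to 33.2 in knockout and 6.21 to 26.5 in control GC B cells, so the ranges overlapped. Myb had 225 and 170 counts in the Myb knockout GC pools and 201 and 143 in the controls, and 24 and 27 in the knockout plasmablast pools against 46 and 37 in the controls. Kat6a had 1540 and 3037 counts in the Moz knockout pools and 2431 and 2633 in the controls. Whole-gene counts therefore did not show either deletion. Which exons were floxed was not given in the sources used here, so "knockout" below means the libraries so labelled.

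Per kilobase of the deposited gene length, members spanned a wide range. Rpl8, a large-subunit protein near the peptidyl transferase centre, had the highest mean over the 12 libraries at 1870 CPM per kb. Rplp1 of the acidic stalk had 1332, Rps15 near the decoding site 1233, Rps14 957 and Rpl32 953 CPM per kb. The lowest tested members were Rpl39l at 0.578, Rpl13 at 2.65, Rpl21 at 3.03 and Rps13 at 6.07 CPM per kb. Rpl3l stood at 0.0118. Proteins needed in 1 copy per ribosome, such as Rpl8 and Rpl13, were thus counted at levels that differ by orders of magnitude.

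Many members have processed copies elsewhere in the genome, and how reads with several matches were counted was not given in the sources used here. Therefore the share of a member's 50-base words that occur in no other annotated gene (GENCODE M21 transcripts) was computed for 82 tested members. It ran from 4.91% to 100%, with a median of 62.9%. The 54 members with at least 50% of such words had a median level of 172 CPM per kb, and the 28 others 36.6. Across members the Spearman correlation with level was 0.39 with 50-base words and 0.51 with 100-base words. Rpl13 had 19.7% and Rpl8 93.7%, but Rpl21 had 80.3% and was among the lowest. The order of members per kb is therefore uncertain as an order of mRNA. Between groups the order was nearly the same, with Spearman correlations from 0.97 to 1.00 over 83 members.

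**Figure D1:**
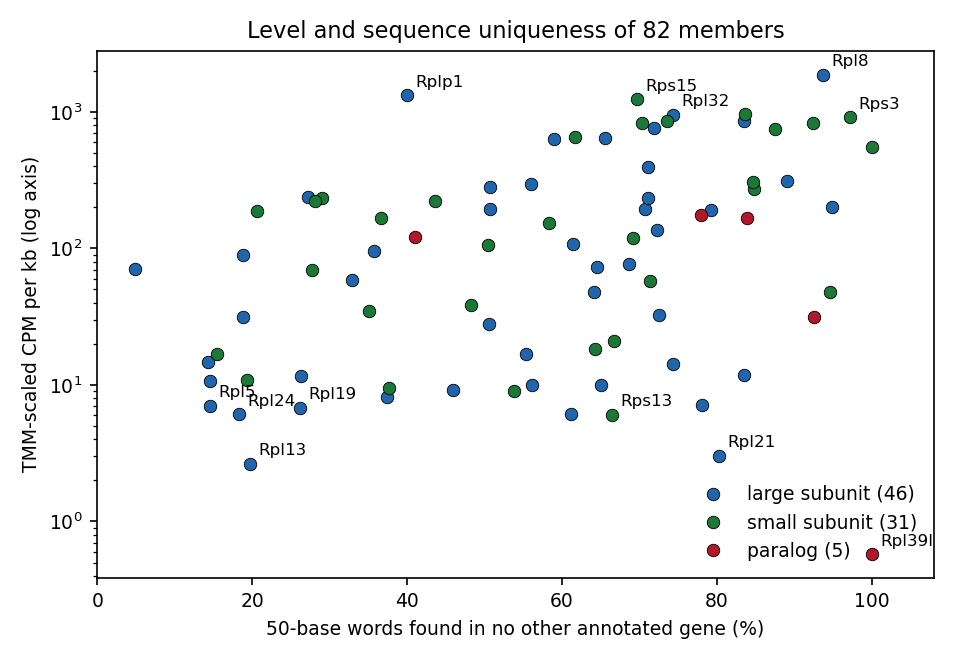
Mean level over the 12 libraries (TMM-scaled CPM per kb, log axis) against the share of 50-base words found in no other annotated gene (percent), for 82 members coloured by subunit. Rpl8 and Rpl13 lie far apart on both axes, and Rpl21 is low despite 80.3% of such words.

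The summed counts of the 85 members were a smaller share of the transcriptome in plasmablasts than in GC B cells. Immunoglobulin genes took 65.0% to 70.0% of counts in plasmablasts and 1.59% to 9.16% in GC B cells, so shares are given over the counts outside them. Members took 1.34% and 1.68% of those counts in Myb knockout plasmablasts and 1.08% and 1.49% in Myb control plasmablasts (pool 1 and pool 2). Myb knockout GC B cells had 2.76% and 3.83%, and Myb control GC B cells 2.61% and 3.66%. All 4 plasmablast libraries lay below all 4 GC libraries of the Myb experiment. The means were 1.40% ± 0.253 in plasmablasts and 3.21% ± 0.621 in GC B cells (SD, n = 4 each), a difference of -1.81 percentage points (two-sided exact permutation test, p = 0.0286, the smallest this design allows). Knockout and control pools of the same number share dates, so the 8 libraries are not fully independent, and date and cell type cannot be told apart. By the labels, males were 10 of 22 mice in the plasmablast pools and 1 of 10 in these GC pools, so sex moved with cell type too, and its part, also for X-linked members, was not tested. Mitochondrially encoded genes took 0.747% to 1.80% of all counts in plasmablasts and 4.84% to 5.63% in the GC pools of the Myb experiment. Leaving them out as well, members had 1.45% ± 0.245 in plasmablasts and 3.40% ± 0.650 in GC B cells (SD, n = 4 each; two-sided exact permutation test, p = 0.0286). One row with no symbol stood apart in the control GC pools, with 4.51% and 3.71% of all counts, against 0.538% and 0.461% in the knockout GC pools and at most 0.252% in a plasmablast pool. Its part in the comparisons was not tested. In bulk libraries, fewer cells of a type and less RNA per cell cannot be told apart either. P-values measure the spread between pools of mice sorted on different dates. Large-subunit members held 53.6% to 56.0% of member counts in every library, so the balance of the subunits moved little.

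**Figure D2:**
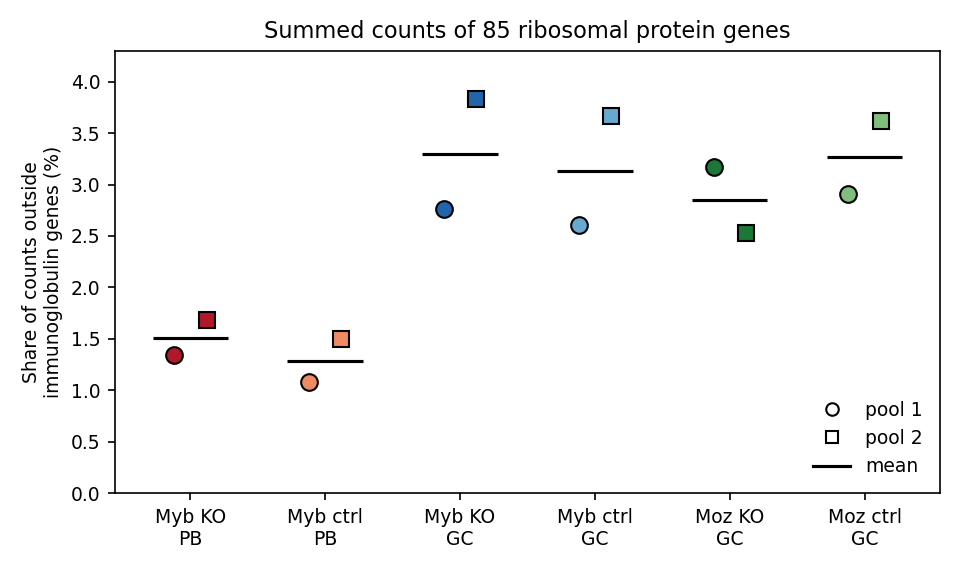
Share of each library's counts outside immunoglobulin genes (percent) that fell on the 85 members, by group, with circles for pool 1, squares for pool 2 and a line for the mean. The 4 plasmablast pools lie between 1.08% and 1.68%, below every GC pool, and pool 1 lies below pool 2 in 5 of the 6 groups, Moz knockout being the exception.

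Within the Myb experiment, the members moved together between the pools of a group. In each of the 4 groups 81 of 83 members were lower in pool 1 than in pool 2. The median log2 difference of pool 1 from pool 2 was -0.52 in Myb knockout plasmablasts, -0.57 in control plasmablasts, -0.60 in knockout GC B cells and -0.60 in control GC B cells. Over all tested genes each of these medians was -0.01. The shift was of like size in knockout and control pools of the same dates. In the Moz experiment it went opposite ways, with a median of 0.39 in Moz knockout (80 of 83 members higher in pool 1) and -0.38 in Moz control (70 of 83 lower). The tests below treat this shared shift as the spread of each gene.

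In Myb knockout plasmablasts 41 of 83 members fell relative to knockout GC B cells and 2 rose (edgeR, adjusted p under 0.05, one model of all 12 libraries). Of all 13131 genes tested, 27.2% were called lower and 24.4% higher. The median log2 difference was -0.81 over the members and -0.17 over all tested genes. In control plasmablasts 62 members fell and 2 rose relative to control GC B cells, against 28.1% of all genes called lower and 25% higher, with a median of -1.04 over the members and -0.17 over all genes. Whether the effect differed between genotypes was tested below, and no member passed. Of the members, 40 fell and the same 2, Rps27l and Rpl36al, rose in both genotypes. The genotypes share no library here, though they share dates. Across the 83 members their log2 differences had the same sign in 80, with a Pearson correlation of 0.86. In 65 members all 4 plasmablast libraries lay below all 4 GC libraries of the Myb experiment (33.5% of all genes did), and in 3, Rps27l, Rpl36al and Rpl10, all lay above (28% of all genes).

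**Figure D3:**
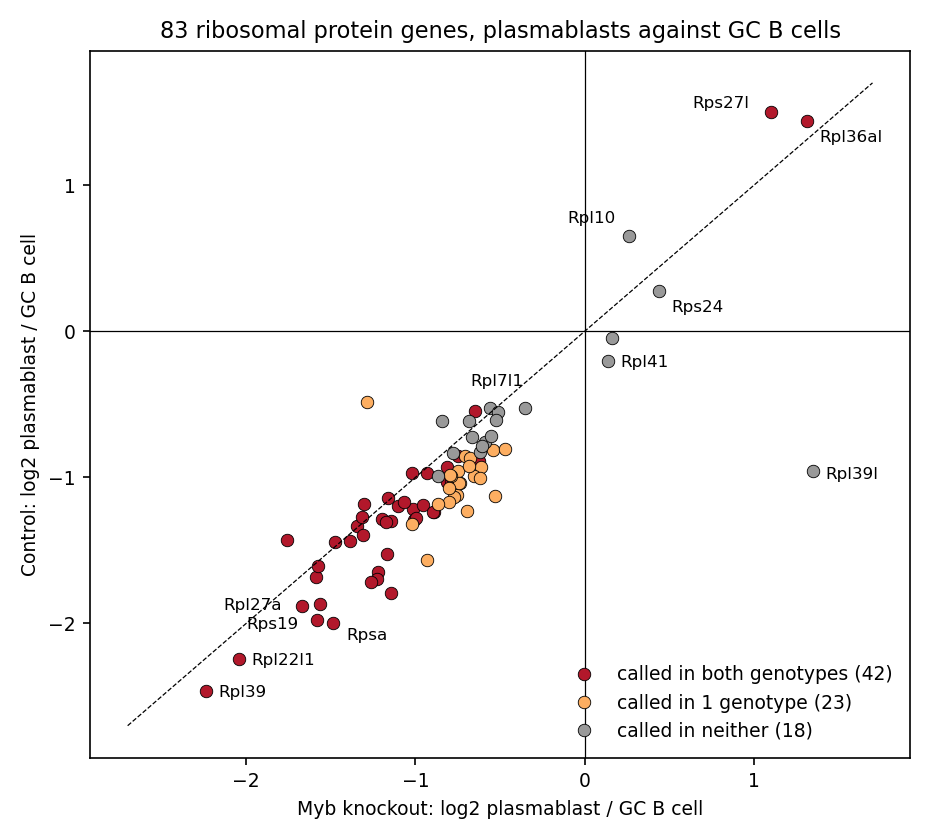
Log2 ratio of plasmablasts to GC B cells for the 83 tested members in Myb knockout (horizontal axis) and control cells (vertical axis), coloured by whether edgeR called the member in both, 1 or neither genotype; the dashed line marks equal values. Most members lie between -0.5 and -2 on both axes, while Rps27l and Rpl36al lie above 1 on both.

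Single libraries decided how many members passed. Without knockout plasmablast pool 1 the count called lower in knockout cells was 9, and without knockout GC pool 2 it was 10. Without control plasmablast pool 1 it was 12 in control cells, and without control GC pool 2 it was 20. The median stayed between -1.11 and -0.52 in knockout cells and between -1.38 and -0.79 in control cells when any 1 library was left out. A replicate block for this comparison, with 1 term for pool number across the Myb experiment, also tied plasmablast and GC pools of a number. With it, 72 members were called lower in knockout cells (33.6% of all genes) and 74 in control cells (34.3%). It called 2 higher in knockout (28.9%) and 3 in control cells (29.3%). No plasmablast pool shares a date with a GC pool, so that tie follows pool number only. The block takes out the shift between pools 1 and 2 given above, and the spread between dates is not in its error.

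Among small-subunit members, Rpsa, which lies near the mRNA exit and is also known as a laminin receptor, had 16.0 and 19.6 CPM in knockout plasmablasts, against 37.9 and 61.9 in knockout GC B cells (log2 -1.48, SE 0.33, edgeR adjusted p = 0.00284). Control plasmablasts had 12.5 and 17.6 CPM, against 46.5 and 73.0 in control GC B cells (log2 -2.0, SE 0.34, edgeR adjusted p = 0.000397). No plasmablast pool reached a GC pool. Rps19, mutated in human Diamond-Blackfan anaemia, had 51.8 and 65.8 CPM in control plasmablasts, against 185 and 279 in control GC B cells (log2 -1.98, SE 0.34, edgeR adjusted p = 0.000462). Rps6, the substrate of S6 kinases downstream of mTORC1, had 7.18 and 12.6 CPM in control plasmablasts and 22.5 and 41.8 in control GC B cells. Its log2 difference was -1.26 in knockout and -1.72 in control cells (edgeR adjusted p = 0.00947 and 0.00155). Rps3, which lies at the mRNA entry and is the member with the most counts, had 900 and 1125 CPM in control plasmablasts and 1620 and 2644 in control GC B cells. It had log2 -0.80 in knockout cells (edgeR adjusted p = 0.0652), which did not pass, and fell in control cells (log2 -1.07, edgeR adjusted p = 0.0188). Rps27a, made as a fusion with ubiquitin, did not pass in knockout (log2 -0.84, edgeR adjusted p = 0.12) or control cells (log2 -0.62, edgeR adjusted p = 0.252). Over all libraries its pseudogene row held 1298 counts, against 1699 on Rps27a itself. Rps24 and Rps14 overlapped between the cell types. Rps24 had 220 and 366 CPM in control plasmablasts, against 182 and 301 in control GC B cells, and Rps14 had 434 and 658 against 418 and 710. Their log2 differences were 0.44 and 0.16 in knockout cells and 0.28 and -0.05 in control cells, none passing (edgeR adjusted p from 0.349 to 0.923).

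Among large-subunit members, Rpl39, a small protein of the exit tunnel, had the largest fall. It had 1.30 and 1.72 CPM in knockout plasmablasts, against 4.75 and 9.66 in knockout GC B cells (log2 -2.24, SE 0.52, edgeR adjusted p = 0.00359). Control plasmablasts had 0.629 and 1.76 CPM and control GC B cells 5.03 and 7.58 (log2 -2.46, SE 0.54, edgeR adjusted p = 0.00233). These rest on few reads, from 7 to 15 counts in a plasmablast library. Rpl27a had 15.3 and 23.1 CPM in control plasmablasts and 55.5 and 85.4 in control GC B cells (log2 -1.88, edgeR adjusted p = 0.000999). Rpl9 (log2 -1.87) and Rpl23a (log2 -1.79), which is part of the docking site for the signal recognition particle, fell as well. In knockout cells the members with the largest falls were Rpl39, Rpl22l1, Rpl10a (log2 -1.76), Rpl27a (log2 -1.67), Rpl13, Rps19, Rpl21 and Rpl9, and the last of these had log2 -1.56. Several rest on few reads too. In the knockout plasmablast pools Rpl13 had 8 and 10 counts, Rpl9 10 and 21, Rpl21 13 and 26 and Rpl10a 17 and 29. Over all libraries, pseudogene rows held 587 counts for Rpl13 and 2704 for Rpl5, against 467 and 3262 on the genes themselves. The values of Rpl13 and Rpl5 are therefore uncertain as values of their mRNA. Rpl5 and Rpl11, which with the small ribosomal RNA of the large subunit bind the p53 regulator MDM2, had log2 -1.20 and -0.75 in knockout cells, where Rpl5 fell and Rpl11 did not pass (edgeR adjusted p = 0.0233 and 0.161). Both fell in control cells (log2 -1.29 and -1.12, edgeR adjusted p = 0.016 and 0.0467). Of the stalk proteins, which recruit elongation factors, Rplp2 alone of the 3 passed in knockout cells (log2 -1.10, edgeR adjusted p = 0.0357). In control cells Rplp0 and Rplp2 fell (log2 -0.87 and -1.20, edgeR adjusted p = 0.0371 and 0.0244) and Rplp1 did not pass (log2 -0.76, edgeR adjusted p = 0.121). Rpl13a had log2 -0.77 in knockout cells (edgeR adjusted p = 0.0636) and -1.14 in control cells (edgeR adjusted p = 0.011). Rpl3, near the catalytic centre, fell in both (log2 -1.15 in knockout and -1.30 in control cells). Rpl10, an X-linked protein that joins the large subunit late, had 12.5 and 11.7 CPM in control plasmablasts and 6.99 and 8.38 in control GC B cells. All plasmablast pools lay above the GC pools of the Myb experiment. Still, log2 0.26 in knockout and 0.65 in control cells did not pass (edgeR adjusted p = 0.591 and 0.175). Pool 1 of Moz control and of Moz knockout GC B cells, at 11.3 and 11.4 CPM, lay within the plasmablast range (9.99 to 12.5 CPM). The X-linked Rps4x had log2 -0.47 in knockout cells (edgeR adjusted p = 0.09) and fell in control cells (log2 -0.81, edgeR adjusted p = 0.00861).

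The paralogs did not follow their partners in every pair. Rps27l (gene ID 67941, GRCm38 chr9 66944624 to 66949522), a p53-induced relative of Rps27, had 92.9 and 149 CPM in knockout plasmablasts, against 37.5 and 75.1 in knockout GC B cells. Control plasmablasts had 107 and 162 CPM and control GC B cells 34.9 and 60.1. Every plasmablast pool was above every GC pool of the Myb experiment. The log2 difference was 1.10 in knockout cells (2.15-fold, SE 0.38, edgeR adjusted p = 0.0292) and 1.5 in control cells (2.83-fold, SE 0.38, edgeR adjusted p = 0.00608). Rps27 (chr3) went the other way, with 1.98 and 4.14 CPM in control plasmablasts and 7.12 and 7.34 in control GC B cells (log2 -1.27, edgeR adjusted p = 0.0225). Of the reads counted on the pair, Rps27l took 97.8% ± 0.485 in control plasmablasts and 86.1% ± 4.31 in control GC B cells (SD, n = 2 each). Of their 50-base words, 83.8% for Rps27l and 53.8% for Rps27 occur in no other annotated gene. A further row, Rps27rt, held 3778 counts outside the pair. The share is therefore uncertain as a share of mRNA.

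Rpl36al (gene ID 66483, GRCm38 chr12 69182734 to 69184067) is an autosomal copy of the X-linked Rpl36a. It had 111 and 193 CPM in knockout plasmablasts, against 47.5 and 75 in knockout GC B cells, and 107 and 188 CPM in control plasmablasts, against 43.6 and 64.9 in control GC B cells. Again no plasmablast pool overlapped the GC pools. The log2 difference was 1.31 in knockout cells (2.49-fold, SE 0.36, edgeR adjusted p = 0.00935) and 1.44 in control cells (2.71-fold, SE 0.36, edgeR adjusted p = 0.00549). Rpl36a (chrX) had log2 -0.93 in knockout cells, which did not pass (edgeR adjusted p = 0.119). It had 1.08 and 3.39 CPM in control plasmablasts and 5.38 and 7.42 in control GC B cells (log2 -1.57, edgeR adjusted p = 0.0184). In each genotype both rises missed the threshold without GC pool 1 and without plasmablast pool 2. In knockout cells the edgeR adjusted p was 0.192 for Rps27l and 0.0729 for Rpl36al without GC pool 1, and 0.209 and 0.104 without plasmablast pool 2. In control cells the edgeR adjusted p was 0.0572 and 0.0513 without GC pool 1, and 0.0538 and 0.07 without plasmablast pool 2. Scaled by library totals alone, in which immunoglobulin reads count fully, their estimates turned negative (log2 -0.93 and -0.73 in knockout cells, and -0.39 and -0.46 in control cells).

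Rpl22l1, the paralog that can replace Rpl22 in mice lacking it, fell in both genotypes. It had 13.5 and 23.1 CPM in knockout plasmablasts, against 54.2 and 97.2 in knockout GC B cells (log2 -2.05, SE 0.40, edgeR adjusted p = 0.00113). Control plasmablasts had 12.8 and 19.1 CPM and control GC B cells 52.1 and 98.0 (log2 -2.24, 4.74-fold lower, SE 0.40, edgeR adjusted p = 0.000606). Rpl22 had log2 -0.74 in knockout cells (edgeR adjusted p = 0.114), and 195 and 296 CPM in control plasmablasts, against 356 and 652 in control GC B cells (log2 -1.04, edgeR adjusted p = 0.0333). Rpl22l1 took 6.02% ± 1.11 of the pair's reads in knockout plasmablasts and 13.8% ± 0.590 in knockout GC B cells, and 6.10% ± 0.0575 in control plasmablasts and 12.9% ± 0.221 in control GC B cells (SD, n = 2 each). Of their 50-base words, 41.1% for Rpl22l1 and 94.8% for Rpl22 occur in no other annotated gene, so this too is a share of counts. Rpl7l1, an assembly factor related to Rpl7, had log2 -0.65 in knockout and -0.55 in control cells (edgeR adjusted p = 0.0112 and 0.0257), and Rpl7 had log2 -0.74 in knockout and -1.04 in control cells (edgeR adjusted p = 0.0586 and 0.0127). Rpl39l, a testis paralog of Rpl39, had at most 0.906 CPM in a library and its difference did not pass. Rpl32l had log2 -1.02 in knockout and -0.97 in control cells (edgeR adjusted p = 0.0351 and 0.0424). Its span overlaps the gene Map7, and no share of 50-base words was computed for it. Whether its reads come from Rpl32l, Rpl32 or Map7 was not tested.

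**Figure D4:**
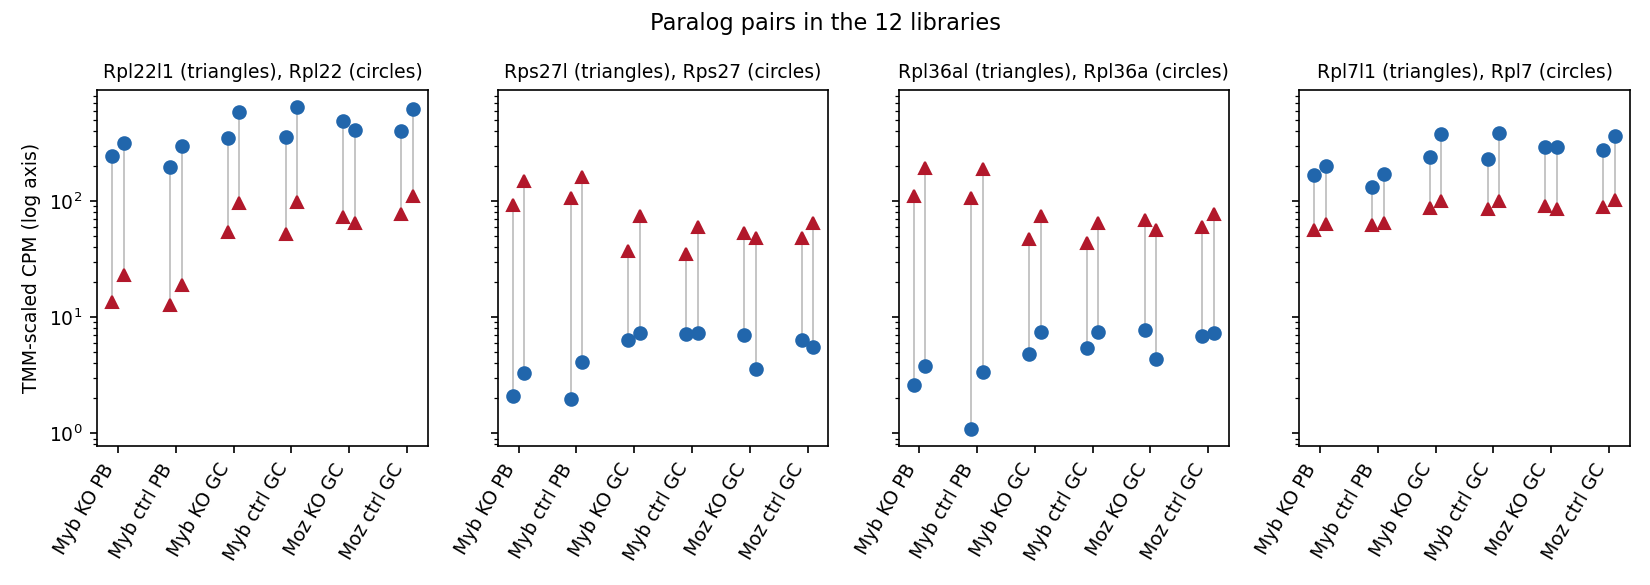
TMM-scaled CPM (log axis) of 4 paralogs (triangles) and their partners (circles) in each of the 12 libraries, with the 2 pools of a group side by side and a line joining the pair. Rps27l and Rpl36al are higher and their partners lower in plasmablasts, whereas Rpl22l1 is lower with Rpl22.

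Scaling each library by the summed counts of the members asks which of them moved against the set. By this scaling 5 members were higher and 7 lower in knockout plasmablasts (30.2% and 9.85% of all genes), and 6 and 7 in control plasmablasts (37.9% and 8.89% of all genes). Higher in both genotypes, with log2 values for knockout and then control cells, were Rps27l (1.86 and 2.48), Rpl36al (2.03 and 2.38), Rps24 (1.16 and 1.24), Rps14 (0.90 and 0.93) and Rpl41 (0.85 and 0.75). Lower in both were Rpl39 (-1.47 and -1.51), Rpl22l1 (-1.31 and -1.24), Rpsa (-0.73 and -1.02), Rps19 (-0.83 and -1.0) and Rpl27a (-0.95 and -0.91). Rps2 and Rpl21 were called lower in knockout cells only, and in control cells only Rpl10 was called higher and Rps6 lower, differences between genotypes that were not tested on this scale. The gap between the members' median and that of all genes was also taken under the 7 scalings or tools other than the main fit. It ran from -0.65 to -0.61 in knockout cells and from -0.90 to -0.84 in control cells. The median of all genes itself lay between -2.21 and 0.78. A new scaling moves all genes by nearly the same amount, so it could hardly change this gap.

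Genes that build or regulate ribosomes were counted from lists chosen for their roles. Values in this paragraph are for plasmablasts against GC B cells, in knockout cells and then in control cells. Of 40 ribosome biogenesis factors 28 fell and 1 rose in knockout cells (median log2 -1.14), and 26 fell and 1 rose in control cells (median log2 -1.04). Gar1, a core protein of H/ACA ribonucleoproteins, averaged 10.3 ± 2.89 CPM in knockout plasmablasts and 61.1 ± 9.40 in knockout GC B cells (SD, n = 2 each; log2 -2.56, edgeR adjusted p = 2.6e-05). In control cells it averaged 8.92 ± 1.05 CPM in plasmablasts and 49.3 ± 4.36 in GC B cells (log2 -2.47, edgeR adjusted p = 3.19e-05). Its partner Nhp2 had log2 -2.37 and -2.17. Of 15 genes of the RNA polymerase I machinery, which transcribes ribosomal RNA, 6 and 5 fell and 0 rose, with Polr1e at log2 -1.65 and -1.73. Of 14 other TOP transcripts 8 and 10 fell and 0 rose, led by Nap1l1 (log2 -3.32 and -3.63). Of 30 initiation factors 9 fell in each genotype, and 2 and 3 rose, among them Eif5 (log2 1.29 and 1.35). In the mTORC1 and LARP1 list of 18 genes, 5 rose and 4 fell in knockout cells, and 7 rose and 1 fell in control cells. Larp1b, a LARP1 relative, averaged 73.0 ± 11.8 CPM in knockout plasmablasts, against 7.44 ± 1.03 in knockout GC B cells (log2 3.29, edgeR adjusted p = 7.47e-07). Eif4ebp1, the inhibitor of initiation that mTORC1 phosphorylates, rose too (log2 1.82 and 0.99). In the MYC and p53 list of 7 genes, 4 fell in each genotype and 1 and 2 rose. Myc (log2 -2.15 and -1.68) and Trp53 (log2 -1.75 and -1.74) were among those that fell, while Cdkn1a, a p53 target, rose (log2 2.30 and 1.43). Of 77 mitochondrial ribosomal protein genes 26 and 29 fell and 2 and 3 rose (medians -0.42 and -0.46). The shares of all genes called lower, 27.2% and 28.1%, and higher, 24.4% and 25%, stand beside these counts. GC B cell markers fell with the members, as given above. Of 5 B lineage markers 3 and 4 fell (medians -2.93 and -3.10), among them Pax5 (log2 -6.75 and -7.24). Of 4 tested T cell markers, Cd4 was called higher in control plasmablasts (log2 1.06, edgeR adjusted p = 0.0434) and 0 in knockout plasmablasts. Further, 1 of 5 myeloid markers, Csf1r, was higher in plasmablasts of both genotypes (log2 2.51 and 2.70). Their part in the differences was not tested.

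Ribosomal protein genes whose names fall outside the rule had the same direction. Rack1, a small-subunit scaffold, and Fau did not pass in knockout plasmablasts against GC B cells (log2 -0.75 and -0.77, edgeR adjusted p = 0.0886 and 0.141) and fell in control cells (log2 -1.10 and -1.59, edgeR adjusted p = 0.0183 and 0.00796). The annotated retrogene Rpl37rt had log2 -1.01 in knockout and -1.17 in control cells (edgeR adjusted p = 0.0262 and 0.0123).

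Loss of Myb changed no member past the threshold in either cell type. In plasmablasts 0 of 83 members were called higher and 0 lower in the knockout (edgeR; 0.00762% and 0.0305% of all genes were), and none had an unadjusted p under 0.05. DESeq2 and limma-voom called 0 members as well. The median log2 difference of knockout from control was 0.22 over the members and 0.01 over all tested genes, with 72 estimates positive and 11 negative. Estimates had a median SE of 0.35. Among the largest estimates were those of Rpl39l (log2 0.91) and Rpl36a (log2 0.58), and the lowest were those of Rpl27 (log2 -0.32), Rpl10 (log2 -0.27) and Rpl10a (log2 -0.19), all with edgeR adjusted p = 1. Within the date-matched pairs, on log2 of CPM plus 0.5, the members' median was 0.23 in pair 1 and 0.16 in pair 2, and 69 and 67 of 83 members were higher in the knockout. Over all tested genes the medians were 0.00 and 0.01, and 30.3% of all genes were higher in both pairs, against 61 of 83 members. With the replicate block 0 members were called (0.213% of all genes higher and 0.366% lower) and 3 had an unadjusted p under 0.05 (smallest edgeR adjusted p = 0.492). The median turned negative without knockout pool 2 (-0.12) or control pool 1 (-0.07), and was 0.45 without knockout pool 1 and 0.52 without control pool 2. Members of 1 library rise and fall together, so these counts are not separate evidence, and an exact test of 2 pools against 2 cannot go below p = 0.333.

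In GC B cells the Myb knockout had no member called higher or lower (edgeR; 0.236% and 0.0228% of all genes were), and none had an unadjusted p under 0.05. DESeq2 and limma-voom also called 0. The median log2 difference was -0.03 over the members and 0.00 over all genes, and the medians within pairs were -0.02 and -0.02. The summed share was 2.76% in the knockout and 2.61% in the control of pair 1, and 3.83% and 3.66% in pair 2. Rpl27 (log2 0.48), Rps27a (log2 0.38) and Rps16 (log2 0.31) had the largest positive estimates, and Rpl39l (log2 -1.40), Rpl9 (log2 -0.35) and Rpl23a (log2 -0.34) the largest negative ones, all with edgeR adjusted p = 1. With the block, 0 members were called (2.03% of all genes higher and 0.396% lower) and the smallest edgeR adjusted p was 0.445. The median was 0.23 without knockout pool 1, 0.29 without control pool 2, -0.36 without knockout pool 2 and -0.28 without control pool 1. Prdm1, a plasmablast regulator, was the only marker called here (log2 2.34), while no biogenesis factor passed.

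The difference of the 2 Myb effects was tested directly. No member passed for the effect in plasmablasts minus that in GC B cells (edgeR; 0% of all genes higher and 0.00762% lower), and none had an unadjusted p under 0.05. DESeq2 and limma-voom called 0 members. The median difference of effects was 0.20 over the members and -0.01 over all genes, with a median SE of 0.50. Rpl39l (log2 2.31), Rpl23a (log2 0.65) and Rpl36a (log2 0.64) had the largest estimates, and Rpl27 (log2 -0.80), Rps27l (log2 -0.40) and Rpl10 (log2 -0.39) the lowest. Its direction changed with 1 library, the median being lowest at -0.10 without control GC pool 2 and highest at 0.56 without knockout GC pool 2.

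Moz knockout GC B cells had 0 members called in either direction (edgeR; 0% of all genes in either direction), and 0 members had an unadjusted p under 0.05. DESeq2 and limma-voom called 0. The median log2 difference was -0.24 over the members and -0.01 over all genes, but the 2 pairs went opposite ways. In pair 1 the members took 3.17% in the knockout and 2.91% in the control, the median was 0.15 and 78 of 83 members were higher in the knockout. In pair 2 they took 2.53% in the knockout and 3.62% in the control, the median was -0.62 and 1 of 83 was higher. Only 1 member was higher and 5 were lower in both pairs, against 23.3% and 23.7% of all genes. Rpl22l1 (log2 -0.47), Rplp0 (log2 -0.46) and Rpl34 (log2 -0.44) had the lowest estimates (edgeR adjusted p = 1). Only Rpl10 (log2 0.04) and Rpl13 (log2 0.01) had positive ones. The median was -0.49 without Moz knockout pool 1, -0.41 without control pool 1, -0.05 without knockout pool 2 and -0.02 without control pool 2. With the block, 0 members were called (0.267% of all genes higher and 0.0305% lower) and 5 had an unadjusted p under 0.05 (smallest edgeR adjusted p = 0.195). Plasmablast markers summed to 6823 to 8338 CPM in Moz knockout and 5324 to 5967 in Moz control GC B cells, and their part in these values was not tested. The Myb effect minus the Moz effect in GC B cells called 0 members (edgeR; 0% of all genes in either direction), with a median of 0.23 over the members (-0.09 without Myb knockout GC pool 2), where Rpl27 (log2 0.62), Rps27a (log2 0.56) and Rps25 (log2 0.56) were highest and Rpl39l (log2 -1.33), Rpl23a (log2 -0.18) and Rpl9 (log2 -0.09) lowest. Neither DESeq2 nor limma-voom called a member, and 0 had an unadjusted p under 0.05.

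**Figure D5:**
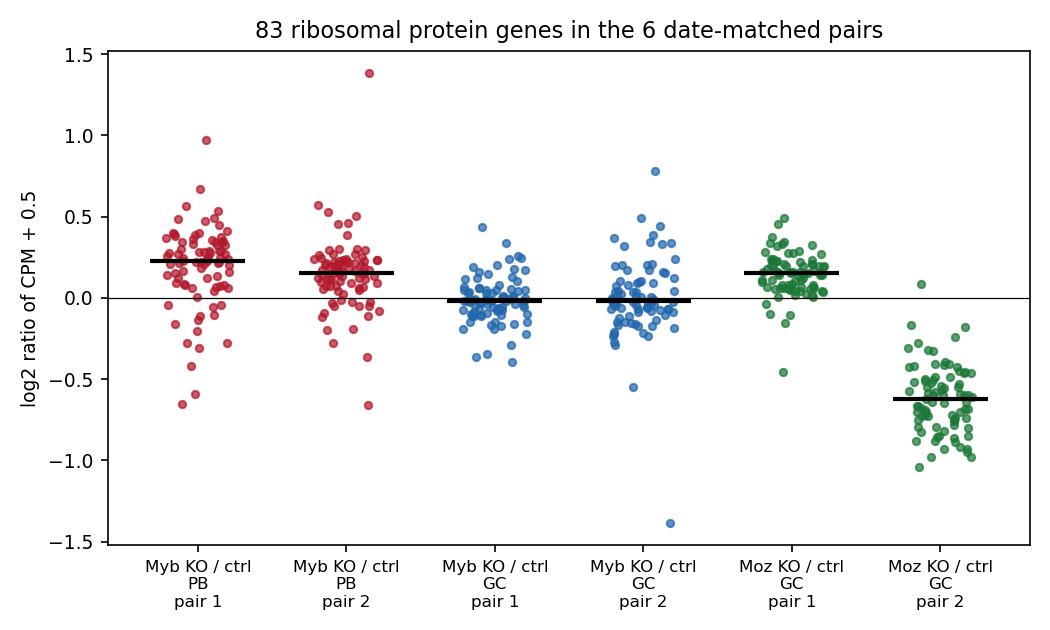
Log2 ratio of knockout to control (CPM plus 0.5) for each of the 83 members in the 6 date-matched pairs, with a bar at the median. The medians are 0.23 and 0.16 in Myb plasmablast pairs, -0.02 in both Myb GC pairs, and 0.15 and -0.62 in the Moz pairs.

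GC B cells of day 12 (Myb control) and day 7 (Moz control) were compared next. Of 83 members 0 were called higher and 0 lower at day 12 (edgeR; 0.297% and 1.08% of all genes were), 0 had an unadjusted p under 0.05, and DESeq2 and limma-voom called 0. The median was -0.04 over the members and -0.02 over all genes, and it ran from -0.36 without Myb control pool 2 to 0.21 without Myb control pool 1. Of the 8 plasmablast markers 4 were lower at day 12, and the list summed to 1295 to 2090 CPM at day 12 and 5324 to 5967 at day 7. The shares were 2.61% and 3.66% at day 12 and 2.91% and 3.62% at day 7, which overlap. Rpl36 (log2 0.42, edgeR adjusted p = 0.966) and Rps25 (log2 -0.45, edgeR adjusted p = 0.928) were among the largest estimates, with Rpl13 (log2 0.37), Rps13 (log2 0.32), Rpl39l (log2 -0.54) and Rps28 (log2 -0.37). Males were 1 of 5 mice at day 12 and 5 of 6 in the day 7 pool with a clear label. Day, floxed allele, cre, sex and experiment date differ together here and cannot be told apart.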

How the data were processed

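The authors deposited whole-number counts per Entrez gene ID. The submitters' processing notes name featureCounts and mm10. Aligner, strand, treatment of reads with several matches and versions were not given in the sources used here. Gene length in bases comes from the same deposited table. RefSeq (GRCm38.p6) paired 25275 IDs with symbols and 1904 had none. Of the members, 14 overlap another coding or long noncoding gene and 24 hold a small nucleolar RNA gene, so their counts are uncertain without the strand.

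Genes passing filterByExpr (minimum count 10, minimum total 15) entered edgeR 4.0.16 (R 4.3.3) in one model of 6 group means, with TMM scaling, two-sided quasi-likelihood tests and Benjamini-Hochberg adjustment across all 13131 genes that passed. SE means standard error on the log2 scale. limma 3.58.1 and DESeq2 1.42.0 were alternatives, with other scalings, no low-count filter, the compared groups alone, a replicate block, and each library left out. Knockout and control pools of a number share dates per the labels, and their deviations correlated at 0.600, 0.453 and 0.361 over all genes. In comparisons of knockout with control the block therefore pairs them. Between plasmablasts and GC B cells it instead ties all Myb pools of a number, which share no date across cell types. Depth ranged from 8285934 to 24801297 counts. Intervals cover counting error only, and a member share of all counts had a 95% Wilson interval from 0.376% to 0.381% in the library with the lowest share.

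The members and lists were chosen with earlier results of these data known. Genes are named by a fixed list of paralog pairs and familiar members, by the largest called changes of each comparison (8 per direction), by the 3 largest estimates where fewer than 3 were called, and by the 5 highest and lowest levels per length. Rps2 and Rpl41 were named after their values were seen, and Rps24 and Rpl32l are also outside these rules. Some results are not reported here.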

Additional observations from a re-analysis of the deposited data

Results flagged for a closer look

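Reads outside the members carried ribosomal protein sequence. The retrogene row Rpl37rt held 45027 counts over the 12 libraries and Rps27rt 3778, and the 34 rows of ribosomal protein pseudogenes together held 47709. Single pseudogene rows ran from 0 counts, as for Rplp2-ps1, to 18436 for Rps15a-ps4. The retrogene and pseudogene rows enter no comparison of the members. The pseudogene rows equalled 1.08% to 1.46% of the member counts in a library, and adding them to the members left the share in plasmablasts at 1.42% and in GC B cells at 3.25%. For single members the pseudogene counts equalled 126% of the parent's for Rpl13, 167% for Rpl36, 82.9% for Rpl5 and 76.4% for Rps27a. For Rpl34 and Rps19 they equalled 2.31% and 0.895%. Rpl37rt held 45027 counts, against 15508 for Rpl37. Between plasmablasts and GC B cells Rpl13-ps6 did not pass in knockout or control cells (log2 -0.60 and -0.28, edgeR adjusted p = 0.322 and 0.658). Whether reads on the retrogene and pseudogene rows come from there or from the parent genes was not tested.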

How the results depend on the processing

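Scaling by library totals alone called no member higher in either genotype and 82 lower in knockout plasmablasts against GC B cells, with medians of -2.86 in knockout and -2.92 in control cells. It turned Rps27l (-0.93 in knockout and -0.39 in control cells), Rpl36al (-0.73 and -0.46) and Rpl10 (-1.78 and -1.22) negative in both, and Rpl39l (-0.68) in knockout cells. Scaling by the summed member counts left 5 higher and 7 lower in knockout cells and 6 and 7 in control cells, with medians of -0.10 and -0.080. It turned positive Rps4x (0.25 in knockout and 0.17 in control cells), Rpl7l1 (0.064 and 0.42), Rplp0 (0.089 and 0.13) and Rplp1 (0.14 and 0.19), Rpl22 (0.019) and Rpl7 (0.015) in knockout cells, and Rpl39l (0.14) and Rps27a (0.34) in control cells. Both shifts follow from the scaling itself, which moves all genes. In knockout cells 65 members were lower with no filter on low counts and 72 with the replicate block. Other values that changed sign were Moz Rpl13 (-0.011 with the block and -0.042 by limma-voom) and the Myb minus Moz effect on Rpl9 (0.044 by limma-voom), and the cause was not tested.

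With each library left out in turn, lower members numbered 9 to 53 in knockout and 12 to 59 in control plasmablasts against GC B cells, and higher ones 0 to 2 in each. Medians ran from -0.49 to -0.024 for Moz, from -0.36 to 0.21 for day 12 against day 7 and from -0.092 to 0.55 for the Myb minus Moz effect. The share difference ran from -2.02 to -1.61 points, with p = 0.0571 in each exact permutation test, the smallest that 3 against 4 allows. Estimates of named members that changed sign, none of which had passed the threshold, were as follows. For the Myb knockout in plasmablasts, Rpl39l ran from -0.93 to 6.18, Rpl36a from -0.073 to 1.59, Rpl27 from -0.88 to 0.084 and Rpl10a from -0.54 to 0.094. For the Myb knockout in GC B cells, Rps27a ran from -0.036 to 0.76, Rps16 from -0.33 to 0.75 and Rpl9 from -0.76 to 0.19. For Moz, Rpl10 ran from -0.55 to 0.68 and Rpl13 from -0.39 to 0.37. For the difference of the Myb effects, Rpl36a ran from -0.0026 to 1.66 and Rps27l from -0.82 to 0.19. For the Myb minus Moz effect, Rpl23a ran from -0.53 to 0.16 and Rpl9 from -0.49 to 0.45. Rpl39l, with at most 30 counts in a library, ran from -0.50 to 6.12 between knockout plasmablasts and GC B cells, from -6.23 to 0.24 between the control cells and from -1.74 to 0.15 between the days.

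Rpl39, Rpl22l1, Rpsa and Rps19 kept direction and call in both genotypes under the 14 alternatives run. Having 2 pools a group limits every test to large differences, and few reads limit Rpl39, Rpl39l, Rpl13, Rpl9, Rpl21 and Rpl10a, among others. In plasmablasts, immunoglobulin reads take most of the depth.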
